A study of Mus musculus with 28 samples.

Results

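A set of 10 named genes of neutrophil recruitment and neutrophil identity was followed through cultured cancer cells and the tumors grown from them: the chemokines Cxcl1, Cxcl2, Cxcl3 and Cxcl5, their receptor Cxcr2, and the neutrophil products S100a8, S100a9, Ly6g, Retnlg and Mmp8. A gene entered when a row of the expression table carried its symbol. This held for 9 of the 10 genes, in a table of 43143 rows of which 18509 carried a symbol, and Ly6g, the surface protein by which mouse neutrophils are usually sorted, had no row and is named only.

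The libraries came from 3LL cells, a Lewis lung carcinoma line of C57BL/6 mice, as WT cells, as KEAP1-KO cells in which CRISPR-Cas9 deleted Keap1, and as DKO cells in which Nrf2 (Nfe2l2) was deleted as well. The edited cells were cloned from single colonies, the DKO cells after a further round of editing in KEAP1-KO cells, while the WT cells were the parental line. How many clones of an edited genotype gave these libraries is not stated in the labels. Cells in culture gave 12 libraries, 4 per genotype, and 16 came from subcutaneous tumors in male albino C57BL/6 mice that received cells at 6 weeks of age and were sampled 10 days later. In Experiment A 4 WT and 4 KEAP1-KO tumors grew in opposite flanks of the same mice, and in Experiment B 4 KEAP1-KO and 4 DKO tumors did, so genotype and flank changed together. The hosts were immunocompetent, and their own Keap1 and Nrf2 genes were not edited.

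CXCR2 is the main chemokine receptor of mouse neutrophils, and CXCL1, CXCL2, CXCL3 and CXCL5 are ligands that draw cells bearing it out of blood. The ligands can be made by epithelial and tumor cells as well as by macrophages and neutrophils themselves, and their genes respond quickly to NF-kB when IL-1 or TNF is sensed. S100A8 and S100A9 pair into calprotectin, among the most abundant cytosolic proteins of neutrophils, while RETNLG is a secreted resistin-like protein and MMP8 the collagenase stored in neutrophil granules.

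The table mixes rows for whole genes with rows for single transcripts, and this decides what was measured for 4 of the members. In GENCODE coordinates of GRCm38, Cxcl1 (chr5:90891241-90893115), Cxcl2 (chr5:90903871-90905938), Cxcl3 (chr5:90786103-90789600) and S100a8 (chr3:90668978-90670035), all on the plus strand, were each represented by a retained-intron transcript, in which an intron stays in the RNA. Cxcl5 (chr5:90759360-90761624, plus strand), Cxcr2 (chr1:74153989-74161246, plus strand), S100a9 (chr3:90692632-90695721, minus strand), Retnlg (chr16:48872621-48874496, plus strand) and Mmp8 (chr9:7558456-7568485, plus strand) were gene rows. No annotated gene overlapped any of the 9 on either strand.

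The junctions at which the transcripts of those 4 rows run into or out of an intron are shown because they are the stretches that set these RNAs apart from the spliced messages. Exon bases are in capitals and intron bases in lower case, 5′ to 3′, read from GRCm38.
Cxcl1, chr5:90891351-90891410, plus strand: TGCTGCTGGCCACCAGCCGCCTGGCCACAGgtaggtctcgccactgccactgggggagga
Cxcl2, chr5:90904210-90904269, plus strand: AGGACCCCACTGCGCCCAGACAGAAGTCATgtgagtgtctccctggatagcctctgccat
Cxcl3, chr5:90786220-90786279, plus strand: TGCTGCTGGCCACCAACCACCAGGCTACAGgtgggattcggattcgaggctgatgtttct
S100a8, chr3:90669489-90669548, plus strand: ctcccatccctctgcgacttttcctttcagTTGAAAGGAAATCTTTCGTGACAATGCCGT
Of the 1871 bases of the Cxcl1 transcript 922 lay in introns of its coding transcripts, of the 397 bases of Cxcl2 117, of the 3498 bases of Cxcl3 975, and of the 498 bases of S100a8 208. The Cxcl3 transcript also ran beyond its coding transcripts, so that 1016 of its bases lay in their exons and 71.0% outside them. Taken as overlapping runs of 31 bases, 45.2% of the Cxcl1 transcript, 66.8% of Cxcl2, 26.2% of Cxcl3 and 55.6% of S100a8 also occurred in a coding transcript of the same gene. Values of these rows therefore stand for an estimated share of the gene's reads, and levels are compared between groups for 1 row. Where a difference between rows of a tumor is given, only its change between groups is read. A share of 24.8% of the Cxcl2 runs was also present in transcripts of Cxcl3, the neighbouring gene, so reads could have been split between these 2 genes. The long Cxcl3 transcript shared 5.07% of its runs with transcripts of 1460 other genes, whereas no run of the Cxcl1 or S100a8 transcript occurred in another gene.

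The longest run of bases found within 250 bases before the start of Cxcl1, Cxcl2 and Cxcl3 alike has 11 letters and is shown in capitals within 90 bases that run from 110 to 21 bases before the start of the gene in RefSeq (GRCm38.p6, plus strand).
Cxcl1, chr5:90891135-90891224: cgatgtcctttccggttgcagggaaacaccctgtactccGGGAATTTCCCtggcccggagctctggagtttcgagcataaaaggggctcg
Cxcl2, chr5:90903789-90903878: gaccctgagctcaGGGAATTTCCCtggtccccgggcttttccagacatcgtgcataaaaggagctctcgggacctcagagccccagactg
Cxcl3, chr5:90785991-90786080: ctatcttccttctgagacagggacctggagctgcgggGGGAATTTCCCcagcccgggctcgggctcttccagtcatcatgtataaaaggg
The run GGGAATTTCCC, which holds a form of the NF-kB site, was searched on both strands and began 71, 97 and 73 bases before the start of Cxcl1, Cxcl2 and Cxcl3. It was present in 14 of 32851 mouse promoters of the same length, or 0.0426%. The core of the antioxidant response element bound by NRF2, TGACNNNGC, occurred in no member promoter of the table and in 12.4% of all promoters. The C/EBP-like run TTGCNNAA occurred in the promoters of S100a9, Retnlg and Mmp8 and in 1 of the 2 Ly6g promoters, and in 10.8% of all promoters. Cxcl5 was the member without an entry in the promoter table.

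The deposited values behave as log2(normalized count + 4), a scale inferred from the values themselves. On it 2.0 marks a library with no reads of a row, and a difference on this scale understates the change of a low row. Libraries held between 4222370 and 7524293 reads, and 4 libraries made up each of the 7 groups. Keap1 and the NRF2 target Nqo1 followed the labels: Keap1 lay between 8.78 and 8.98 in WT tumors and between 7.13 and 7.86 in KEAP1-KO tumors of both experiments, and Nqo1 was at least 11.93 in every KEAP1-KO tumor and at most 7.06 in every WT or DKO tumor. A row was called changed when limma's moderated test, adjusted over all rows tested by the Benjamini-Hochberg method, gave an adjusted p under 0.05. The Nfe2l2 row, a single transcript, did not fall with deletion of Nrf2. DKO minus KEAP1-KO was -0.0007 in tumors of Experiment B and 0.22 in cells, neither called. The paper reports frameshifts in Nrf2 and no NRF2 protein in the DKO line. In bulk tumors, fewer cells of a type and less RNA per cell cannot be told apart.

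**Figure D1:**
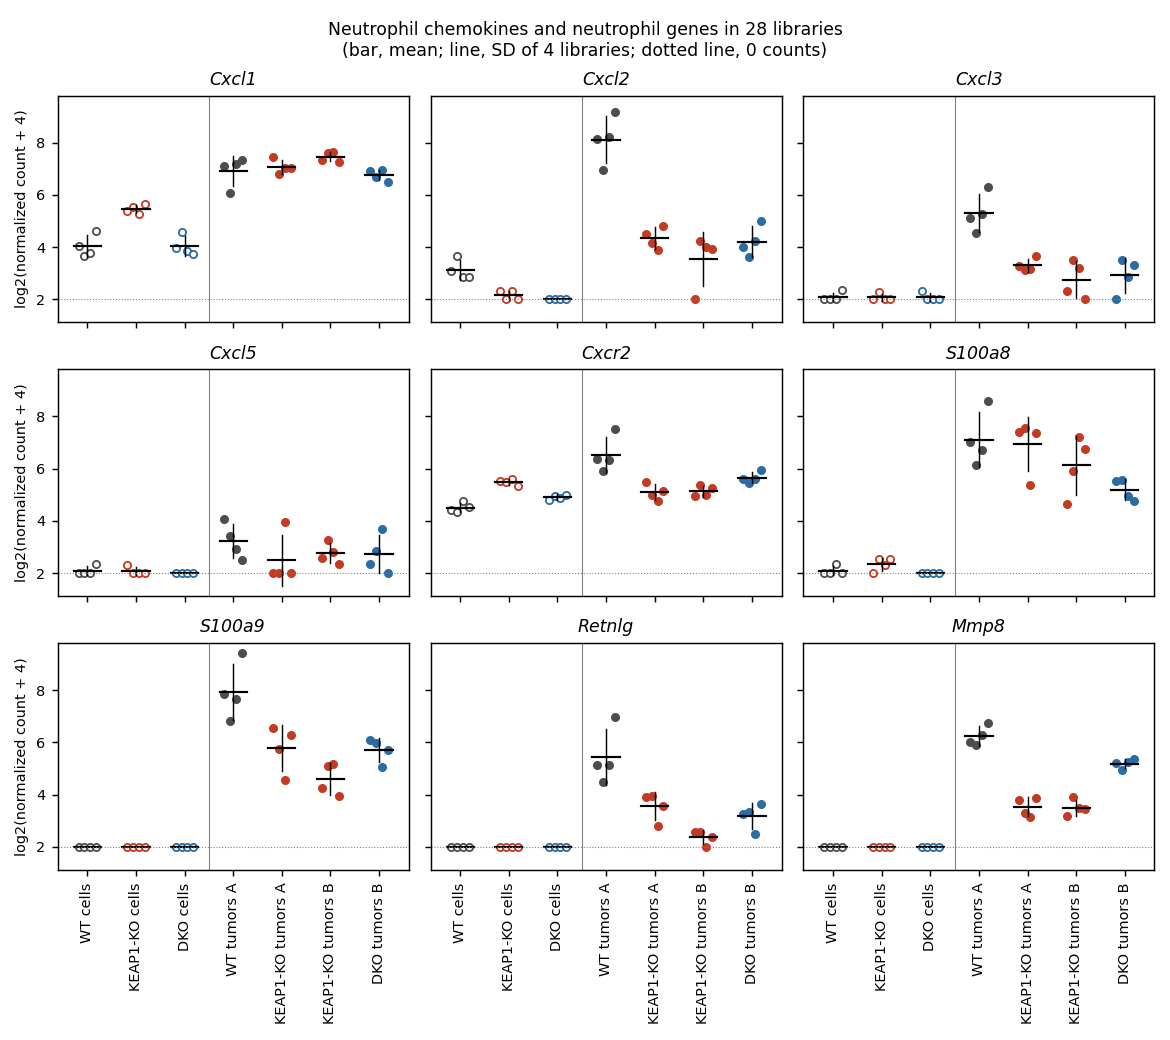
Each panel plots 1 member in 28 libraries as log2(normalized count + 4) against the 7 groups, with open circles for cultured cells, filled circles for tumors, a bar for the mean and a line for the SD of 4 libraries. S100a9, Retnlg and Mmp8 sit at the dotted line of 0 counts in all cultured cells, and Cxcl2, Cxcl3, S100a9, Retnlg and Mmp8 are highest in WT tumors.

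Experiment A asked what deletion of Keap1 in the cancer cells does to the tumor. Of the 9 members, 6 fell in KEAP1-KO tumors and none rose: the ligands Cxcl2 and Cxcl3, the receptor Cxcr2, and the neutrophil products S100a9, Retnlg and Mmp8. Cxcl1 and S100a8 stayed at levels that overlapped those of WT tumors, and Cxcl5 was too low to place. Over all 34215 rows tested in tumors 13.1% were called in this comparison and 7.49% were lower, and the median difference of the members was -1.88 on the log2 scale beside -0.03 over all rows.

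Cxcl2, the ligand that macrophages and neutrophils release on activation, read 8.12, 6.95, 8.22 and 9.16 in the 4 WT tumors and 4.52, 4.16, 3.87 and 4.82 in the 4 KEAP1-KO tumors beside them. The highest KEAP1-KO tumor stood more than 2 log2 units under the lowest WT tumor. The difference was -3.77 (SE 0.50, adjusted p = 6.72e-05), and the mean normalized count was 315 in WT and 16.9 in KEAP1-KO tumors, a ratio of 18.6.

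A second Cxcl2 transcript of the table, which carries no symbol and shares more of its sequence with the coding message (87.1% of its runs), moved the same way. It read 6.30, 5.89, 5.97 and 6.91 in WT tumors and 4.02, 3.29, 3.87 and 3.56 in KEAP1-KO tumors, without overlap. Its difference was -2.58 (SE 0.41, adjusted p = 0.000398).

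Cxcl3, a close relative of Cxcl2 in the same gene cluster, read 5.11, 4.53, 5.28 and 6.30 in WT tumors and 3.26, 3.11, 3.14 and 3.67 in KEAP1-KO tumors. Again every KEAP1-KO tumor was under every WT tumor. The difference was -2.01 (SE 0.42, adjusted p = 0.00400), on 180 reads in all over the WT tumors and 23 over the KEAP1-KO tumors, and it missed the threshold when the offset of 4 was replaced by 0.4 (adjusted p = 0.108).

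Cxcl1 behaved otherwise. It read 7.09, 6.06, 7.20 and 7.34 in WT tumors and 7.45, 6.80, 7.04 and 7.03 in KEAP1-KO tumors, so that the ranges overlapped. The difference was 0.16 (95% interval -0.32 to 0.64, adjusted p = 0.739), an interval that leaves out a fall of the size seen for Cxcl2 or Cxcl3 on this scale.

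Within each tumor the Cxcl1 value minus the Cxcl2 value was lower in all 4 WT tumors, between -1.83 and -0.89, than in any of the other 12 tumors. It lay between 2.20 and 3.17 in the KEAP1-KO group of Experiment A, between 3.33 and 5.35 in that of Experiment B and between 1.501 and 3.06 in DKO tumors. The size of such a difference depends on the lengths of both rows, so only its change between groups is read, and this contrast was chosen after the values were seen and carries no test.

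Cxcl5, a ligand made mainly by epithelial cells, was near the limit of these libraries, with 14, 7, 4 and 2 reads in WT tumors and 0, 0, 12 and 0 in KEAP1-KO tumors. All the reads of the KEAP1-KO group came from 1 tumor. The difference of -0.74 had an interval from -1.77 to 0.29 (adjusted p = 0.395), so a change could not be detected at this depth.

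Cxcr2, the receptor of all 4 ligands, read 6.36, 5.91, 6.32 and 7.52 in WT tumors and 5.50, 4.99, 4.76 and 5.14 in KEAP1-KO tumors. No KEAP1-KO tumor reached the lowest WT tumor. The difference was -1.43 (SE 0.27, adjusted p = 0.00172), a ratio of 3.17 in mean normalized counts.

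S100a9, the larger calprotectin subunit, read 7.87, 6.82, 7.68 and 9.41 in WT tumors and 6.54, 5.75, 4.54 and 6.29 in KEAP1-KO tumors. The groups did not overlap, with WT replicate 2 and KEAP1-KO replicate 1 closest to each other. The difference was -2.16 (adjusted p = 0.00853), a ratio of 5.24 in mean normalized counts that was 3.10 without WT replicate 4.

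S100a8, its partner subunit, read 7.01, 6.12, 6.71 and 8.60 in WT tumors and 7.41, 7.57, 5.38 and 7.38 in KEAP1-KO tumors. The KEAP1-KO tumors other than replicate 3 lay above all WT tumors but replicate 4, and replicate 3 lay under all of them. The difference of -0.18 had a wide interval, from -1.45 to 1.10 (adjusted p = 0.906), and its sign turned to 0.32 without WT replicate 4 and to 0.34 without KEAP1-KO replicate 3.

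The gap between the 2 calprotectin rows within a tumor was set beside genotype in the same way, with only its change between groups read. S100a8 minus S100a9 lay between -0.97 and -0.69 in WT tumors, between 0.84 and 1.82 in the KEAP1-KO group of Experiment A, between 0.40 and 2.80 in that of Experiment B, and between -0.96 and -0.11 in DKO tumors. All 8 KEAP1-KO tumors lay above the other 8 tumors, a contrast noticed in the values and given with no test. The S100a8 row is a transcript that keeps intron sequence and the S100a9 row is a gene row, and the part of this in the gap was not tested.

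**Figure D2:**
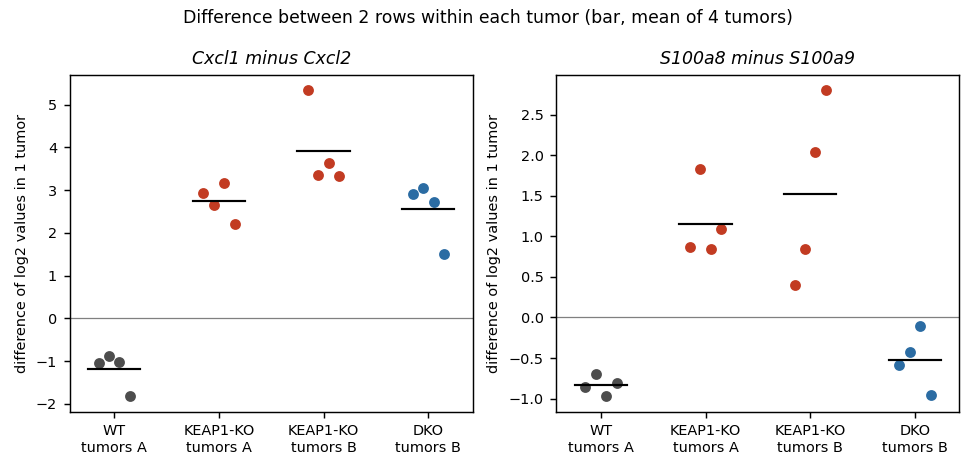
Each point is 1 tumor, placed by the difference of 2 log2 values within it, Cxcl1 minus Cxcl2 on the left and S100a8 minus S100a9 on the right, for 4 groups of 4 tumors with a bar at the mean. The left panel separates WT tumors (mean -1.19) from the other groups (2.74, 3.92 and 2.55), and the right panel separates KEAP1-KO tumors (1.16 and 1.52) from WT and DKO tumors (-0.83 and -0.52).

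Retnlg read 5.15, 4.47, 5.13 and 6.98 in WT tumors and 3.92, 3.96, 2.79 and 3.56 in KEAP1-KO tumors, without overlap. WT replicate 4 stood apart above the other WT tumors. The difference was -1.88 (SE 0.44, adjusted p = 0.00947) and -1.36 without that tumor, still called.

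Mmp8 had the lowest adjusted p of the members in this comparison. It read 6.02, 5.89, 6.29 and 6.75 in WT tumors and 3.81, 3.29, 3.14 and 3.88 in KEAP1-KO tumors, a gap of about 2 log2 units between the groups. The difference was -2.71 (SE 0.23, adjusted p = 9.96e-07), a ratio of 9.38 in mean normalized counts.

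WT tumor replicate 4 was the highest of the 16 tumors for 7 members, namely Cxcl2, Cxcl3, Cxcr2, S100a8, S100a9, Retnlg and Mmp8, and it had the lowest summed leukocyte and macrophage markers of the WT tumors. All 6 calls of this comparison held with any 1 of its 8 libraries left out. Other leukocyte genes fell too: 10 of 10 leukocyte markers and 11 of 12 macrophage and monocyte markers were lower in KEAP1-KO tumors, their summed normalized counts running from 3788 to 4751 and from 7574 to 11152 in WT tumors against 908 to 1109 and 3504 to 4203 in KEAP1-KO tumors. Their part in the result for the members was not tested.

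Experiment B asked whether deletion of Nrf2 in KEAP1-KO cancer cells reverses what Keap1 deletion does. Among the members Mmp8 alone passed the test, being higher in DKO than in KEAP1-KO tumors, while 8.86% of the 34215 rows were called and the members' median difference was 0.51 beside 0.00 over all rows. Cxcl2, Cxcr2, S100a9 and Retnlg had higher means in DKO tumors that did not pass the test, and Cxcl1 and S100a8 had lower means that did not pass it.

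Mmp8 read 3.17, 3.92, 3.47 and 3.43 in the KEAP1-KO tumors grown beside DKO tumors and 5.20, 4.94, 5.25 and 5.35 in the DKO tumors. The groups were separated by more than 1 log2 unit. The difference was 1.69 (SE 0.23, adjusted p = 0.000194), a ratio of 4.34 in mean normalized counts.

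S100a9 read 4.25, 5.08, 5.19 and 3.94 in KEAP1-KO tumors and 6.10, 5.99, 5.05 and 5.72 in DKO tumors, where 1 DKO tumor fell within the KEAP1-KO range. The difference was 1.10 (95% interval 0.03 to 2.18, adjusted p = 0.225). Retnlg had 2, 2, 0 and 1 reads in KEAP1-KO tumors and 5, 6, 2 and 10 in DKO tumors, with a difference of 0.81 (adjusted p = 0.336).

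Cxcr2 read 4.95, 5.37, 4.97 and 5.24 in KEAP1-KO tumors and 5.61, 5.43, 5.60 and 5.93 in DKO tumors. The ranges touched no value in common, yet the difference of 0.51 was small beside the spread pooled over tumors (95% interval -0.06 to 1.08, adjusted p = 0.311).

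Cxcl1 read 7.35, 7.59, 7.66 and 7.27 in KEAP1-KO tumors and 6.92, 6.67, 6.94 and 6.51 in DKO tumors. All DKO tumors were under all KEAP1-KO tumors. The difference was -0.70 (SE 0.23, adjusted p = 0.0700) and it passed the threshold with a stricter filter on low rows (0.0419) and with the 2 groups fitted alone (0.0111).

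Cxcl2 read 2.0, 4.24, 4.02 and 3.94 in KEAP1-KO tumors and 4.005, 3.61, 4.21 and 5.01 in DKO tumors, with no reads at all in the first of these tumors. The difference was 0.66 (95% interval -0.39 to 1.72, adjusted p = 0.519). For the second Cxcl2 transcript it had the other sign, at -0.20 (SE 0.41, adjusted p = 0.854), so no direction is read for Cxcl2. Cxcl3 had 1, 8, 5 and 0 reads against 0, 7, 4 and 7, and Cxcl5 2, 6, 3 and 1 against 1, 3, 11 and 0, so that no difference of these 2 ligands was detectable at this depth.

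S100a8 read 4.64, 5.93, 7.23 and 6.74 in KEAP1-KO tumors and 5.51, 5.56, 4.94 and 4.76 in DKO tumors. The KEAP1-KO tumors spread over more than 2 log2 units around the DKO range. The difference of -0.94 had an interval from -2.22 to 0.33 (adjusted p = 0.427).

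Markers of other leukocytes differed in this experiment as well. Of 10 leukocyte markers 9 were higher in DKO than in KEAP1-KO tumors, as were 7 of 12 macrophage and monocyte markers. The leukocyte sum ran from 2754 to 3970 in DKO and from 1509 to 1795 in KEAP1-KO tumors, and the macrophage and monocyte sum from 8066 to 11078 and from 5795 to 6524. Their part in the Mmp8 result was not tested.

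**Figure D3:**
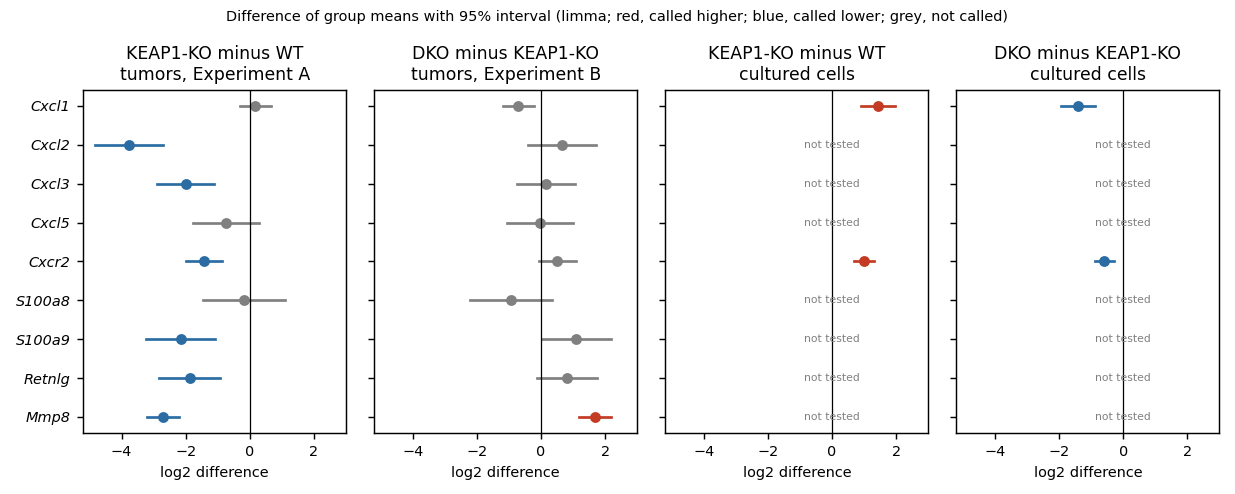
Points are differences of group means on the log2 scale with 95% intervals from limma for the 9 members, in red where called higher, in blue where called lower and in grey where not called. In tumors 6 members are blue in Experiment A and Mmp8 is red in Experiment B, and in cultured cells Cxcl1 and Cxcr2 are red with Keap1 deletion and blue with further deletion of Nrf2.

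KEAP1-KO tumors were sampled in both experiments, which gives a view of how well their values repeat in other mice. None of the 9 members was called between the experiments, where 0.164% of all rows were. By limma's unadjusted p 2632 of the 34215 rows lay under 0.05. Among them were 2 members, Retnlg (-1.18, adjusted p = 0.525) and S100a9 (-1.17, adjusted p = 0.601), both lower in Experiment B. Mmp8 differed by -0.03 (95% interval -0.53 to 0.47) and Cxcr2 by 0.04 (-0.54 to 0.61). Among markers of other leukocytes, 5 of 12 macrophage and monocyte markers and 3 of 10 leukocyte markers were called higher in Experiment B, and none lower. The median difference was -0.54 for the members and 0.71 and 0.80 for these lists. Most members had larger standard errors than most of these markers, so the counts of calls do not say which set repeated better. The leukocyte sum of KEAP1-KO tumors was 1509 to 1795 in Experiment B and 908 to 1109 in Experiment A.

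DKO tumors were also set beside WT tumors. These groups came from different experiments, so genotype and experiment cannot be told apart. Of the members 6 were lower in DKO tumors and none higher, against 10.6% of all rows called and 5.99% lower. Cxcl2 was lower by a difference of -3.91 (SE 0.50, adjusted p = 8.70e-05), a ratio of 19.98 in mean normalized counts, and Cxcl3 by -2.39 (SE 0.42, adjusted p = 0.00151). S100a9 (-2.23, adjusted p = 0.00905), Retnlg (-2.25, adjusted p = 0.00356) and Mmp8 (-1.05, adjusted p = 0.00801) were also lower, each with all 4 DKO tumors under all 4 WT tumors.

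Cxcr2 was called by a narrow margin in this comparison, at -0.88 (adjusted p = 0.0474), with 1 DKO tumor at 5.93 above the lowest WT tumor at 5.91. The call was lost when any 1 of WT replicates 1, 3 and 4 or DKO replicates 1 to 4 was left out, at differences from -0.98 to -0.55, and in 6 of 8 other settings (adjusted p from 0.0512 to 0.109). S100a8 fell short by as little: its DKO tumors (4.76 to 5.56) lay under all WT tumors (6.12 to 8.60), with a difference of -1.92 and an adjusted p of 0.0537, and it passed without WT replicate 2 (-2.25, adjusted p = 0.0379), with a mean filter of 25 (0.0312) and with the 2 groups fitted alone (0.0318). Cxcl1 (-0.16, 95% interval -0.64 to 0.32) and Cxcl5 (-0.51, -1.54 to 0.52) were not called.

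For the macrophage and monocyte markers, the same comparison called 0 of 12 in either direction, and 2 of 10 leukocyte markers were lower. Between KEAP1-KO tumors, 5 of the 12 macrophage and monocyte markers were higher in Experiment B than in Experiment A. The macrophage and monocyte sum was 8066 to 11078 in DKO and 7574 to 11152 in WT tumors, ranges that overlap. Cxcl2 read at most 5.01 in DKO and at least 6.95 in WT tumors. The part of these markers in the Cxcl2 difference was not tested.

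In culture, the question was which of these changes the cancer cells show on their own. Cxcl1 and Cxcr2 were the members with enough reads to be tested, and both rose on deletion of Keap1 and fell again on deletion of Nrf2. Over the 29744 rows tested in cells 15.5% were called between KEAP1-KO and WT cells, 8.83% between DKO and KEAP1-KO cells and 17.7% between DKO and WT cells.

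Cxcl1 read 4.05, 3.66, 3.78 and 4.61 in WT cells, 5.40, 5.52, 5.28 and 5.63 in KEAP1-KO cells and 3.98, 4.58, 3.86 and 3.74 in DKO cells. KEAP1-KO cells stood above all other cells, and WT and DKO cells overlapped. The rise was 1.43 (SE 0.25, adjusted p = 0.00136) and the fall -1.42 (adjusted p = 0.00247), while DKO and WT cells differed by 0.02 (95% interval -0.52 to 0.55).

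Cxcr2 read 4.40, 4.34, 4.74 and 4.54 in WT cells, 5.52, 5.49, 5.59 and 5.35 in KEAP1-KO cells and 4.78, 4.97, 4.87 and 5.01 in DKO cells. The 3 genotypes did not overlap, with DKO cells in between. The rise was 0.98 (SE 0.14, adjusted p = 0.000361) and the fall -0.58 (adjusted p = 0.0210).

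The fall of Cxcr2 in DKO cells missed the threshold when KEAP1-KO replicate 1, 2 or 3 or DKO replicate 1 or 3 was left out, at differences from -0.58 to -0.54 and adjusted p from 0.0545 to 0.0696. DKO cells lay 0.40 above WT cells (adjusted p = 0.0734), and this passed without WT replicate 3 (0.48, adjusted p = 0.0464).

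The 7 other members had few or no reads in cells. Cxcl2 had 4, 8, 3 and 3 reads in WT cells, 1, 0, 1 and 0 in KEAP1-KO cells and none in DKO cells, and every WT library was above every other cell library. Cxcl3 and Cxcl5 had at most 1 read in any library and S100a8 at most 2. S100a9, Retnlg and Mmp8 had no reads in all 12 libraries. Leukocyte markers were mostly low in culture as well, with Tyrobp at 0 counts in every cell library and a sum of at most 54.2 normalized counts over all 10. Itgb2 alone among them had enough reads to be tested, with means of 4.34 in WT, 5.32 in KEAP1-KO and 3.47 in DKO cells. It was called lower in DKO than KEAP1-KO cells (-1.85, adjusted p = 0.0103) and was not called between KEAP1-KO and WT cells (0.98, adjusted p = 0.130).

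Tumors were set against cells of the same genotype. All 9 members were higher in WT tumors than in WT cells, 7 in the KEAP1-KO group of Experiment A, 5 in that of Experiment B and 7 in DKO tumors, and no member was lower. As 7 of the members passed the filter on low values only through the tumors, the filter set their direction and nothing is read from these counts. Of all 37246 rows 38.8%, 39.6%, 38.8% and 43.5% were called in these 4 comparisons, and the median row was higher in tumors by 0.20, 0.16, 0.17 and 0.23 on the log2 scale.

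The 3 neutrophil products without reads in culture allow lower bounds only, taken against a floor of 3 reads over the cell libraries of a genotype. These members passed the filter only through the tumors, so the bounds give a size and their direction is not read. S100a9 was at least 370-fold higher in WT tumors (219-fold without replicate 4), 84.9-fold in the KEAP1-KO group of Experiment A, 32.4-fold in that of Experiment B and 68.6-fold in DKO tumors. The bounds for Mmp8 were at least 89.6-fold, 11.5-fold, 11.0-fold and 44.2-fold in the same order. For Retnlg they were at least 61.8-fold (32.8-fold without WT replicate 4), 12.2-fold, 1.83-fold and 7.40-fold, and in the KEAP1-KO group of Experiment B, with 5 reads in all, it was not called.

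Cxcl1 was higher in tumors of every genotype, by 2.90 in WT, 1.62 and 2.01 in KEAP1-KO and 2.72 in DKO. Cxcl2 and S100a8 passed the filter only through the tumors, so their direction is not read and the sizes alone are given. Cxcl2 differed by 4.999 in WT, 2.19 and 1.40 in KEAP1-KO and 2.21 in DKO. S100a8 differed by 5.02, 4.59, 3.79 and 3.19 in the same order.

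Cxcr2 differed between genotypes in this respect. It was 2.02 higher in WT tumors than in WT cells and 0.74 higher in DKO tumors than in DKO cells, whereas KEAP1-KO tumors and KEAP1-KO cells differed by -0.39 (95% interval -0.85 to 0.07) and -0.35 (-0.82 to 0.11). The DKO call for Cxcr2 was lost when libraries were centred on their median or quantile normalized, as was the WT call for Cxcl5 (1.14, adjusted p = 0.0196), which was also lost without WT tumors replicate 1 (0.87), and the DKO call for Retnlg was lost on median centring.

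The effect of Keap1 deletion in tumors of Experiment A minus its effect in cells was tested as an interaction. It was called and negative for 7 members, against 5.38% of all rows called and 3.88% negative. For Cxcr2 it was -2.42 (SE 0.32, adjusted p = 1.10e-05), the receptor being higher in KEAP1-KO than WT cells and lower in KEAP1-KO than WT tumors. For Cxcl1 it was -1.27 (SE 0.33, adjusted p = 0.0206), a rise in cells set against overlapping tumors, and this call was lost without WT cells replicate 2 (-1.15), WT tumors replicate 3 (-1.18) or KEAP1-KO tumors replicate 2 (-1.18), and with the compared groups fitted alone (adjusted p = 0.0615). These were the 2 called members with enough reads in cells for an effect there to be measured.

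The other 5 were Cxcl2 (-2.81, adjusted p = 0.00306), Cxcl3 (-1.99, adjusted p = 0.0119), S100a9 (-2.16, adjusted p = 0.0248), Retnlg (-1.88, adjusted p = 0.0244) and Mmp8 (-2.71, adjusted p = 4.83e-07). S100a9, Retnlg and Mmp8 had no reads in cells and Cxcl3 had 1 read in each genotype, so these 4 values restate the tumor differences and do not show that cells respond otherwise. The Cxcl2 call rests on the offset, being -1.29 with an offset of 0.4 (adjusted p = 0.658), where the ratio of KEAP1-KO to WT mean counts was 0.0952 in cells and 0.0538 in tumors. S100a9 (-1.75) and Retnlg (-1.62) lost the call without KEAP1-KO tumors replicate 3, and with an offset of 0.4 in place of 4 the calls that held were Cxcl1, Cxcr2 and Mmp8.

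For deletion of Nrf2 the same contrast, tumors of Experiment B minus cells, was called for Mmp8 (1.69, adjusted p = 0.000544) among the members and for 3.67% of all rows. Mmp8 had no reads in cells, so this value restates its tumor difference. Cxcr2 came next at 1.09 (95% interval 0.44 to 1.75, adjusted p = 0.0528).

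Other genes of the neutrophil program place the members among a wider set, a list of 40 genes of which 27 had a row and 23 were tested in tumors. In Experiment A 15 were lower in KEAP1-KO tumors, 1 was higher and 7 were not called, with a median difference of -1.81. In Experiment B 9 were higher in DKO tumors, 1 was lower and 13 were not called, with a median of 1.10. DKO tumors beside WT tumors had 7 lower, 1 higher and 15 not called.

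Slfn4, a Schlafen family gene of myeloid cells, differed by -3.45 in Experiment A and 3.25 in Experiment B. Hp, which encodes haptoglobin, a protein of neutrophil granules, differed by -2.98 and 1.42. Lcn2, the iron-carrier-binding protein of neutrophil granules, differed by -2.66 and 1.42. Each of these was called in both experiments.

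Stfa1, a cysteine protease inhibitor of the stefin A family, went the other way, with 1.31 in Experiment A and -1.38 in Experiment B, both called. Clec4d, a C-type lectin receptor of myeloid cells, was not called in either tumor comparison (0.68 and -0.70) but was 2.64 higher in KEAP1-KO than WT cells and -4.40 in DKO against KEAP1-KO cells. Clec4d reached 99.4 to 119 normalized counts in KEAP1-KO cells, beside 12.9 to 15.96 in WT and 0 to 5.24 in DKO cells, and the other genes of the list summed to 34.9 to 49.2, 19.4 to 36.8 and 28.3 to 37.7 in the same order.

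**Figure D4:**
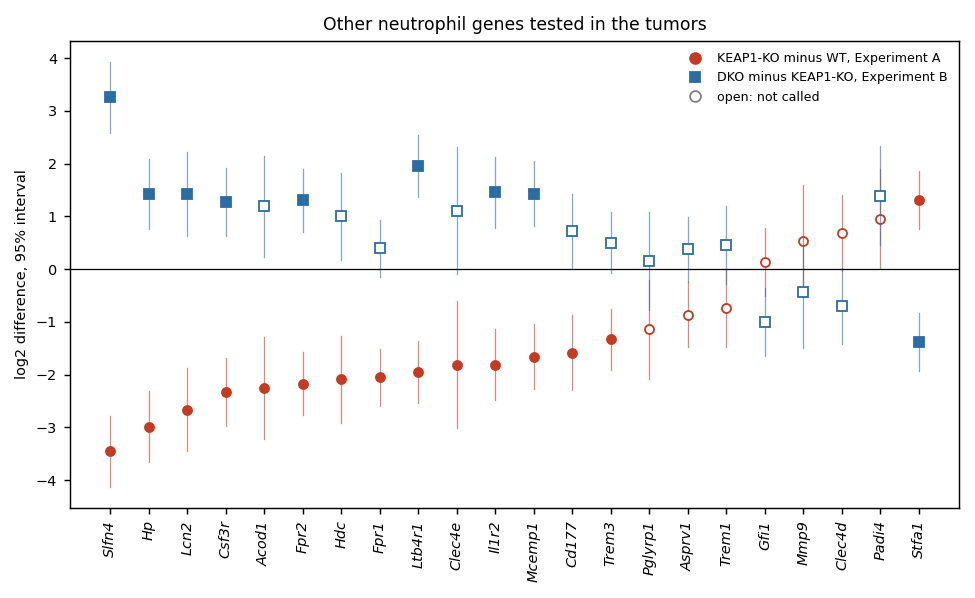
Other neutrophil genes tested in tumors, 1 of the 23 left out, are ordered by their difference in Experiment A, with red circles for KEAP1-KO minus WT, blue squares for DKO minus KEAP1-KO in Experiment B, 95% intervals as lines and open symbols for rows not called. Slfn4 at -3.45 and 3.25 is at the left end and Stfa1 at 1.31 and -1.38 at the right.

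Inducers and regulators of these chemokines were read from a list of 21, of which 14 were tested. The list mixes cytokines, receptors and NF-kB subunits with genes that restrain the response, such as Nfkbia, Tnfaip3 and Zfp36. In Experiment A 5 were lower in KEAP1-KO than WT tumors and none higher, and 5 were higher in DKO than KEAP1-KO tumors of Experiment B and none lower. Il1b, the interleukin whose receptor activates NF-kB, differed by -2.81 and 1.78, and Tnf by -1.82 and 0.98, each called in both experiments. Il1r1, the receptor of IL-1, differed by -0.95 and 0.48, and the NF-kB subunit gene Rel by -0.83 and 0.41. The fifth called in both was Zfp36, which promotes decay of chemokine messages, at -0.73 and 0.45.

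Il1b stayed under its WT level in DKO tumors (-1.17, adjusted p = 0.0233), whereas Tnf differed by -0.13 (adjusted p = 0.804). Il1b had no reads in any of the 12 cell libraries. In cells Il1r1 was lower in KEAP1-KO than WT (-1.14) and higher in DKO than KEAP1-KO (0.66), both called. Rel (0.45) and Zfp36 (1.21) were called higher in KEAP1-KO than WT cells, the opposite direction to Experiment A. Neither Rel nor Zfp36 was called between DKO and KEAP1-KO cells (-0.004 and -0.25).

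Of 8 further CXCR2 ligands and related receptors 5 were tested. In Experiment A Pf4, a chemokine of platelets and megakaryocytes that also marks some macrophages, was lower (-1.41), and Ackr3, a scavenger receptor for CXCL12, was higher (0.90). Ppbp, the platelet ligand of CXCR2, differed by -1.18 (adjusted p = 0.0579). None of the 5 was called in Experiment B.

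Markers of other cell types were read beside the members in tumors. None of 3 keratinocyte, 7 endothelial or 5 red blood cell markers tested was called in Experiment A or B. Of 7 fibroblast markers 2 were lower in Experiment A and 3 higher in Experiment B, and of 2 skeletal muscle markers 0 and 1 were called. Their part in the results was not tested.

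The rows most like each member over the 16 tumors were found by Pearson's r among 15502 rows with a symbol. The tumors share experiments, mice and 4 group means, so these values describe the pattern and carry no test. Mmp8 was closest to Il1b (r = 0.98), Sorl1 (0.98) and Csf3r (0.97), the receptor of granulocyte colony-stimulating factor. Cxcr2 was closest to Arg2 (0.97), Csf3r (0.95) and Lcn2 (0.94).

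Cxcl2 was close to Nlrp3 (0.93) and Lcn2 (0.93), and Cxcl3 to Sgpp1 (0.94), AI837181 (0.93) and Cxcl2 (0.92), with which it shares sequence. S100a9 and Retnlg were closest to each other (0.95), then to Lcn2 (0.93 and 0.94), and next to Hdc (0.92) and Hccs (0.93).

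S100a8 was closest to Pgf (0.88), Hilpda (0.87) and Casp2 (0.86), and Cxcl1 to Tmprss11e (0.79), Slc48a1 (0.78) and Gm19531 (0.78). No other member stood among the 3 rows nearest to S100a8 or Cxcl1. Cxcl5 was closest to Mettl16 (0.94), Kif4 (0.90) and Col1a1 (0.90), on few reads.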

How the data were processed

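RNA from 28 samples, 12 of cells and 16 of tumors, was sequenced after ribosomal RNA depletion as directional paired-end libraries. The authors quantified transcripts with Salmon (version not given in the labels) against GENCODE mouse transcripts and deposited 1 table. The study's methods name TPM-normalized read counts, but the deposited values behave as log2(normalized count + 4), a scale inferred from them: their floor is 2.0 and low values give whole reads. The labels' extraction text names liver, against titles that name cells and tumors, and the study's description was followed. Whole reads per row were recovered by dividing each library's normalized counts by the value of 1 read (low values came out whole within 0.1). No table columns were left unused.

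Members and gene lists were chosen with earlier results of these data known. The named genes are all members, Keap1, Nfe2l2 and Nqo1 as label checks, at most 4 called rows per further list by size of difference, and the 3 rows most like each member. Slfn4, Hp and Lcn2 were named by that rule, and 2 further rows it selects are not reported here. Stfa1, Clec4d, Zfp36, the within-tumor pairs, and the ratios and bounds without a library were chosen after their values were seen, as were Ppbp and the second Cxcl2 transcript.

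limma 3.58.1 (R 4.3.3) was fitted with a mean-variance trend to 16 tumors, 12 cell libraries, or all 28 for tumors against cells and interactions, on rows with at least 5 normalized counts in 4 libraries. Adjusted p-values are Benjamini-Hochberg over all rows tested. All 9 members passed the filter in tumors and over all libraries, and 2 in cells. Whether the 4 cell libraries are separate cultures is not stated, so p-values measure the spread between these samples, which may be technical there. Bounds against 0 reads cover counting error only. The fit was tested on simulated data with 200 changed rows and the same dispersion for every row, not that of each member. In tumors it recovered 100% of changes of 2 log2 units and 52.2% of changes of 1 unit, and 7.14% of calls were false. In cells these shares were 100%, 57% and 4.35%. Sequences came from GRCm38 with GENCODE vM21 and from RefSeq promoters (GRCm38.p6). Columns were checked for duplicates: no 2 libraries were identical. Alternatives were another offset, other filters, quantile normalization, median centring, rows of 1 symbol summed, no trend, the compared groups alone, the replicate number as a block and each library left out.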

Additional observations from a re-analysis of the deposited data

Results flagged for a closer look

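The effect of Keap1 deletion differed between tumors of Experiment A and cells, by a test of the difference itself, at -1.27 for Cxcl1 and -2.42 for Cxcr2 on the log2 scale. The same contrast was called for Cxcl2 at -2.81, a call lost with an offset of 0.4. It was also called at -1.99 for Cxcl3, -2.71 for Mmp8, -1.88 for Retnlg and -2.16 for S100a9, and for Nrf2 deletion, in tumors of Experiment B and cells, at 1.69 for Mmp8. With no more than 1 read of these 4 members in the cells of a genotype, those values restate their tumor differences and do not show that cells respond otherwise.

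In 9 cases a value stood far from the other 3 libraries of its group by Dixon's ratio of the gap to the group's range, a test that chance alone passes in about 1 in 20 groups of continuous values. That rate does not hold for 7 of them, where 3 libraries had no reads and the ratio is 1.0 by construction. In tumors these were Cxcl2 in KEAP1-KO tumor 1 of Experiment B, the lowest of its group with no reads (ratio 0.864), S100a8 in KEAP1-KO tumor 3 of Experiment A, the lowest of its group (0.913), and Cxcl5 in the same tumor, the only 1 of its group with reads (1.0). In cells the ratio was 1.0 in groups otherwise at 0, namely Cxcl3 in WT replicate 4, KEAP1-KO replicate 2 and DKO replicate 1, Cxcl5 in WT replicate 4 and KEAP1-KO replicate 1, and S100a8 in WT replicate 3.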

How the results depend on the processing

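In Experiment A between 4 and 6 members were called under every alternative tried, and 6 with any library left out. In Experiment B the count rose from 1 to 2, by Cxcl1, with a mean filter of 25 normalized counts, with the groups fitted alone and with the replicate number as a block. Without any one library it stayed at 1. With a mean filter of 25 the count became 1 in KEAP1-KO against WT cells, 1 in DKO against KEAP1-KO cells, 5 in WT tumors against cells, 4 in KEAP1-KO tumors A against cells and 4 for the KEAP1 interaction, since fewer members were tested. With the compared groups alone it became 4 and 3 in KEAP1-KO tumors A and B against cells, 4 for the KEAP1 interaction and 2 for the NRF2 interaction, and with an offset of 0.4 it became 3 for the KEAP1 interaction. In these cases the cause was not tested. DKO against KEAP1-KO cells gave 1 with the block and 1 to 2 with a library left out, as Cxcr2 dropped out (adjusted p = 0.0557 with the block), and DKO against WT cells gave 1 with no filter, 1 with no trend and 0 to 1 with a library left out. Over these settings the counts ran from 1 to 3 in KEAP1-KO against WT cells, from 5 to 6 in DKO against WT tumors (5 to 7 with a library left out), and, in tumors against cells, from 4 to 8 and from 3 to 6 in KEAP1-KO of Experiments A and B and from 5 to 8 in DKO.

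Signs that turned with a library left out belonged to differences not called: in Experiment A Cxcl1 (-0.13 to 0.30) and S100a8 (-0.51 to 0.34), in Experiment B Cxcl3 (-0.0916 to 0.47) and Cxcl5 (-0.36 to 0.20), between KEAP1-KO tumors Mmp8 (-0.17 to 0.0851) and Cxcr2 (-0.0733 to 0.17), and between DKO and WT cells Cxcl1 (-0.17 to 0.21).

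Whether tumors of the same replicate number shared a mouse is not stated. Deviations of same-numbered libraries correlated at -0.03 to 0.03, which cannot settle it. The main tests therefore treated tumors of the same mouse as independent. Besides the counts above, the replicate block changed no call of a member. Few reads limit Cxcl3, Cxcl5 and Retnlg most.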
